A study of Mus musculus with 8 samples.

Results

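Isolated hippocampal regions of 5-hydroxymethylcytosine (5hmC) were described here, that is, enriched regions that lie far from any other. A region counted as isolated when the gap to the neighbouring hippocampal region was above 200000 bp on both sides. The choice used positions on the autosomes only and no read count. These positions come from a merged peak list shared by the hippocampal libraries. The first and last listed region of each of the 19 autosomes, 38 in all, could not be isolated, because a neighbour on 1 side is missing. By this rule 961 of 21709 autosomal regions (4.43%) were isolated, out of 21990 hippocampal regions in all. The other 20748 autosomal regions served for comparison.

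5hmC arises when TET enzymes oxidise 5-methylcytosine. It is abundant in brain, where neurons carry much of it over the bodies of active genes and at enhancers, and it is scarce in silent, gene-poor DNA. In 5hmC DIP-seq, DNA fragments that carry the mark are immunoprecipitated and sequenced, so a read count over a region follows both the mark and the number of reads in the library.

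The DNA came from C57BL/6 mice taken 20 weeks after proton exposure at 1 Gy or after sham treatment at 0 Gy. The hippocampus, a memory-forming part of the brain, had 2 pools per dose, and so had the left ventricle of the heart, which makes 8 libraries in 4 groups. Each pool combined DNA of several mice, drawn from 5 mice per treatment group, and the pool was taken as the replicate. Whether the 5 mice were divided between both pools or 5 went into each is unclear from the labels. The ages and sexes of the mice were not in the sources used here. Whole tissue was used, so fewer cells with the mark and less of the mark per cell cannot be told apart. No gene, exon or intron is named because an annotation of the files' build, mm9, was not used here, and the tissue could not be checked by marker genes.

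The 4 hippocampal libraries differed in depth, here meaning their counts inside listed regions, and 1 of them stood apart. The sham pools held 266361 and 110699 counts over all listed regions and the irradiated pools 1912037 and 1628905. Where a region shows 0 counts, up to 3 remain possible, or 11.3 CPM (counts relative to the library's total) in sham pool 1 and 27.1 CPM in sham pool 2. In the irradiated pools it is 1.57 and 1.84 CPM. Sham pool 1 ranked regions opposite to the other libraries. Over the other autosomal regions its Spearman correlation was -0.53 with sham pool 2 and -0.32 with either irradiated pool, whereas the irradiated pools correlated at 0.69 with each other. These correlations run across regions of the same libraries and carry no test. Results below are therefore given with and without sham pool 1.

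Isolated regions held fewer counts than other regions in 3 of the 4 hippocampal libraries and more in sham pool 1. In sham pool 1 the median isolated region had 14 counts against 12 elsewhere. In sham pool 2 it had 1 count against 3. In irradiated pool 1 the medians were 30 and 67, and in irradiated pool 2 they were 28 and 59. The mean count of an isolated region, divided by the mean of the other autosomal regions of the same library, was 1.17 in sham pool 1, 0.456 in sham pool 2, 0.412 in irradiated pool 1 and 0.429 in irradiated pool 2. The ratio thus lay within a narrow band in 3 libraries and well above it in the remaining one. Only 1 isolated region in irradiated pool 1 and 4 in irradiated pool 2 stood at 0 counts.

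**Figure D1:**
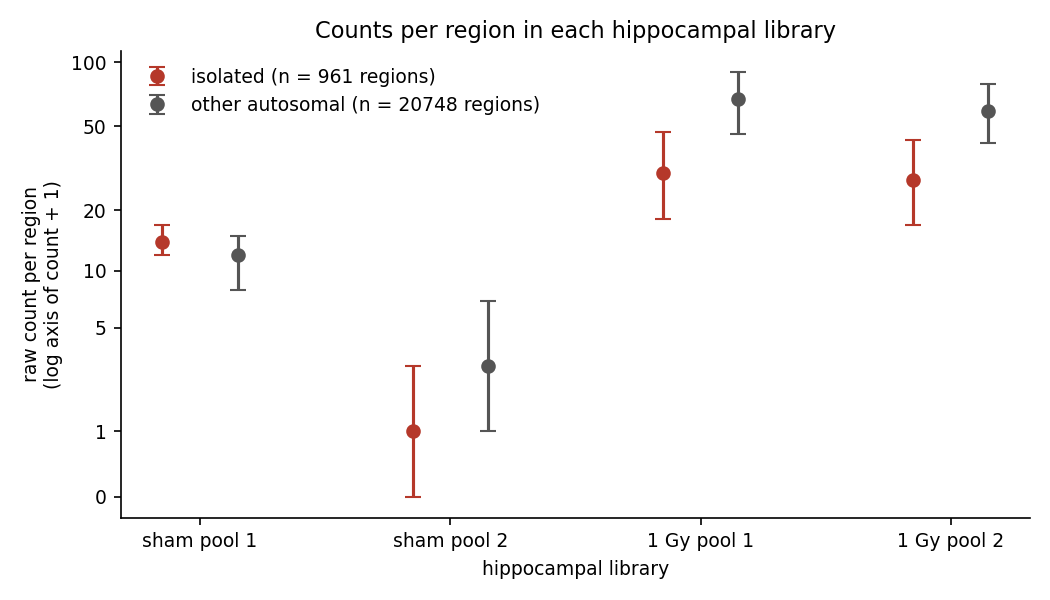
Raw counts per region (log axis of count + 1) in each hippocampal library for the 961 isolated and the 20748 other autosomal regions. Points are medians and bars span the lower to the upper quartile over regions. The isolated regions lie lower in sham pool 2 and both irradiated pools (for example 30 against 67 in 1 Gy pool 1) and higher in sham pool 1 (14 against 12).

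In raw counts, not scaled to library totals, isolated regions spread more widely in the deeper irradiated pools than in the sham pools. Raw spreads follow depth, so they do not show that the mark itself varied more after 1 Gy. The quartiles were 12 and 17 counts in sham pool 1, with a highest count of 35. In sham pool 2 they were 0 and 3, with a highest count of 21. In the irradiated pools they were 18 and 47 (highest 681) and 17 and 43 (highest 470). At least 12 counts in sham pool 1 were found in 767 isolated regions (79.8%), against 54.1% of other regions. The value of 12 is where that library's counts were already known to step up, so it was chosen with these data in view.

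Scaled to library totals, sham pool 1 held the highest CPM of the 4 libraries in 772 of 961 isolated regions (80.3%), against 45.9% of other autosomal regions. The peak list is merged, and the pool in which a region was called is not given. A region called in 1 pool alone would be listed because it is high there. Leads and ranks of the pools are therefore descriptions, and the part of peak calling in them was not tested. Sham pool 2 led in 148 (15.4%, against 30.7%), irradiated pool 1 in 19 and irradiated pool 2 in 22. The 772 regions had a median of 15 counts in sham pool 1, 0 in sham pool 2, and 28 and 24 in the irradiated pools. The 148 regions led by sham pool 2 had medians of 8 and 8 counts in sham mice, against 38.5 and 39 after 1 Gy. In 406 isolated regions (42.2%, against 18.9% of other regions), sham pool 1 held at least 12 counts while sham pool 2 stood at 0. Both sham pools reached at least 3 counts in 252 isolated regions (26.2%, against 45.4%). Among both isolated and other regions the shallower sham pools led more often than the deeper irradiated pools, and the part of depth in this was not tested. When sham pool 1 was left out, the remaining libraries led in more even numbers. Sham pool 2 then led in 29.9% of isolated regions, irradiated pool 1 in 31.9% and irradiated pool 2 in 38.2%. Among other regions the shares were 37.0%, 29.4% and 33.6%.

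Regions without any count were more frequent among isolated regions in sham pool 2 and less frequent in sham pool 1. Sham pool 2 held 0 counts in 435 isolated regions, or 45.3% (95% exact binomial interval 42.1% to 48.5%), against 23.5% (22.9% to 24.1%) of other regions. Sham pool 1 held 0 in 18, or 1.87% (1.11% to 2.94%), against 6.02% (5.70% to 6.36%). If every library had the total of sham pool 2, the share expected at 0 among isolated regions would be 2.84% in sham pool 1, 22.3% in irradiated pool 1 and 20.4% in irradiated pool 2. For other regions it would be 8.28%, 5.79% and 5.18%. With totals inside listed regions made equal, isolated regions were thus emptier than others in irradiated pools and fuller in sham pool 1. These intervals cover counting error only.

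The change with distance was gradual rather than confined to the regions past the threshold. Among regions whose smaller gap was under 10 kb, the median was 41.3 CPM in sham pool 1, 36.1 in sham pool 2, 40.3 in irradiated pool 1 and 41.1 in irradiated pool 2. From 100 to 200 kb, just outside the rule, the medians were 48.8, 18.1, 24.1 and 25.2 CPM. From 200 to 400 kb they were 52.6, 9.03, 16.7 and 18.4 CPM. In the 237 regions above 400 kb they were 52.6, 9.03, 14.1 and 12.9 CPM. Across the bins the irradiated medians fell at every step while the median of sham pool 1 never fell. The share of regions led by sham pool 1 went from 36.7% under 10 kb to 63.7% at 100 to 200 kb and 85.2% above 400 kb. Medians of small counts move in whole-count steps, 9.03 CPM being 1 count in sham pool 2.

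**Figure D2:**
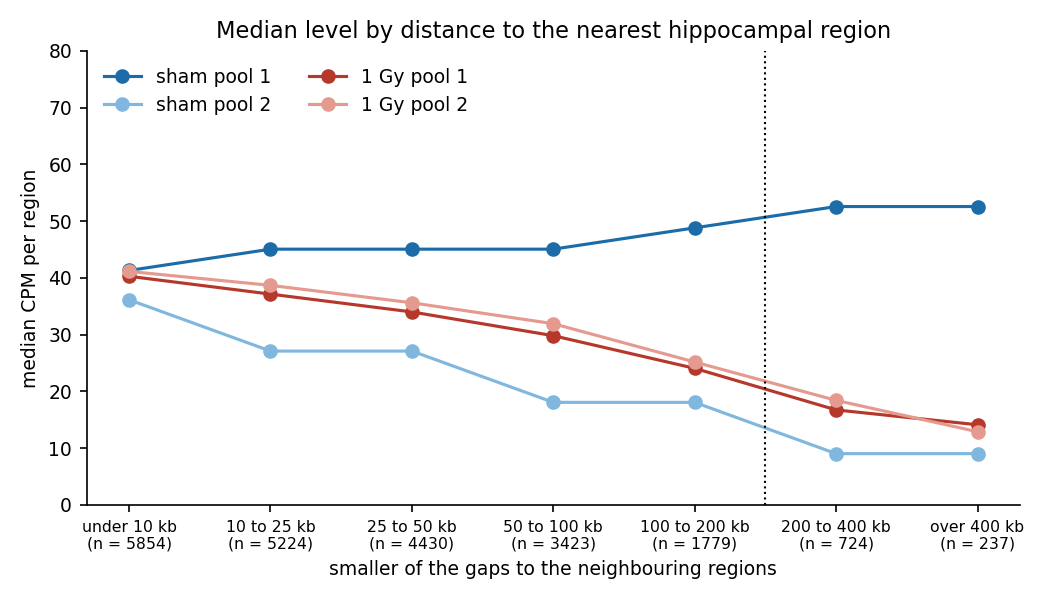
Median CPM per region (scaled to library totals) in each hippocampal library, by the smaller of the gaps to the neighbouring hippocampal regions; n is the number of autosomal regions in each bin and the dotted line marks the 200 kb threshold. The 4 libraries start between 36.1 and 41.3 CPM; past 400 kb sham pool 1 stands at 52.6 CPM and the others between 9.03 and 14.1 CPM.

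Beside the threshold, values did not separate. The last regions outside it, neighbours of each other 199628 bp apart on chromosome 9 (87672820 to 87675363 and 87874992 to 87877535), held 13 and 0 counts in sham mice, and 47 and 16, or 93 and 46, in the irradiated pools. The first region inside, on chromosome 2 (92053313 to 92055856, smaller gap 200033 bp), held 13 and 1 against 78 and 64. The next, on chromosome 3 (75903261 to 75905804, 200227 bp), held 6 and 11 against 24 and 26.

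The 5 most remote isolated regions held at most 18 counts in any library. The median smaller gap was 283635 bp and 9 regions had more than 1 Mb of unlisted DNA on either side. The most remote stood on chromosome 7 (23555897 to 23558440), 1648793 bp from its nearest neighbour, with 13 and 0 counts in sham mice, and 7 and 7 in the irradiated pools. On chromosome 14 (44045620 to 44048163) the counts were 12 and 0 against 3 and 1. On chromosome 8 (22282330 to 22284873) they were 10 and 0 against 4 and 0. In these 3 regions sham pool 1 held more reads than either of the much deeper irradiated pools. The next 2 lay on chromosome 5 (10828126 to 10830669), with 14 and 0 against 16 and 15, and on chromosome 7 (67312986 to 67315529), with 13 and 1 against 18 and 10. All 5 had the most common width of the list, none met a ventricular region, and in each the highest CPM was that of sham pool 1.

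A few isolated regions were strong. By mean CPM over the 4 libraries the first was on chromosome 12 (68158953 to 68161501), with 7 and 6 counts in sham mice, and 681 and 470 in the irradiated pools. The region on chromosome 1 at 87486592 to 87491141 held 1 and 17 against 371 and 306, and it lay 2210451 bp from the region before it. On chromosome 2 (73316461 to 73321616) the counts were 4 and 17 against 168 and 156. On chromosome 10 (21861273 to 21863816) they were 9 and 10 against 201 and 194, and on chromosome 1 (20988201 to 20993333) 5 and 19 against 118 and 134. In none of these 5 did sham pool 1 lead. Their widths were between the most common width and 5156 bp, and 3 of them overlapped a ventricular region.

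Isolated regions were narrower on average than others (2582 against 2678 bp). The most common width of the list was found in 898 (93.4%), against 77.4% of other regions. Another 53 were wider and 10 narrower, with a range from 1285 to 5156 bp. The 53 wider ones had medians of 10 and 5 counts in sham mice, against 65 and 56 after 1 Gy, and sham pool 1 led in 18 of them (34.0%). In the 898 of common width it led in 751 (83.6%), with medians of 14, 1, 29 and 26 counts. Compared at that same width, sham pool 1 led in 55.8% of the other regions, with medians of 13, 2, 61 and 54. The difference between isolated and other regions was thus also present among regions of 1 width.

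Isolated regions occurred on all 19 autosomes, and most often on chromosomes where regions are sparse. On chromosome 3, 82 of 1143 regions were isolated (7.17%), the highest share, and on chromosome 19, 14 of 610 (2.30%), the lowest. Chromosome 1 held the most, 100 of 1509 (6.63%), and chromosome 11, the densest, 33 of 1391 (2.37%). The median over autosomes was 4.0%, or 0.376 isolated regions per Mb. Across the 19 chromosomes the Spearman correlation between regions per Mb and the share isolated was -0.74. It is a description, because the rule ties isolation to density. The share of a chromosome's counts held by its isolated regions was highest in sham pool 1 on 19 of 19 chromosomes. It ranged from 2.98% to 8.59% there, from 1.02% to 4.30% in sham pool 2, from 0.733% to 3.93% in irradiated pool 1 and from 0.783% to 3.90% in irradiated pool 2. Sham pool 1 led in 65.7% of the isolated regions of chromosome 2, the lowest share of any autosome, and in 93.9% of those of chromosome 7, the highest.

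**Figure D3:**
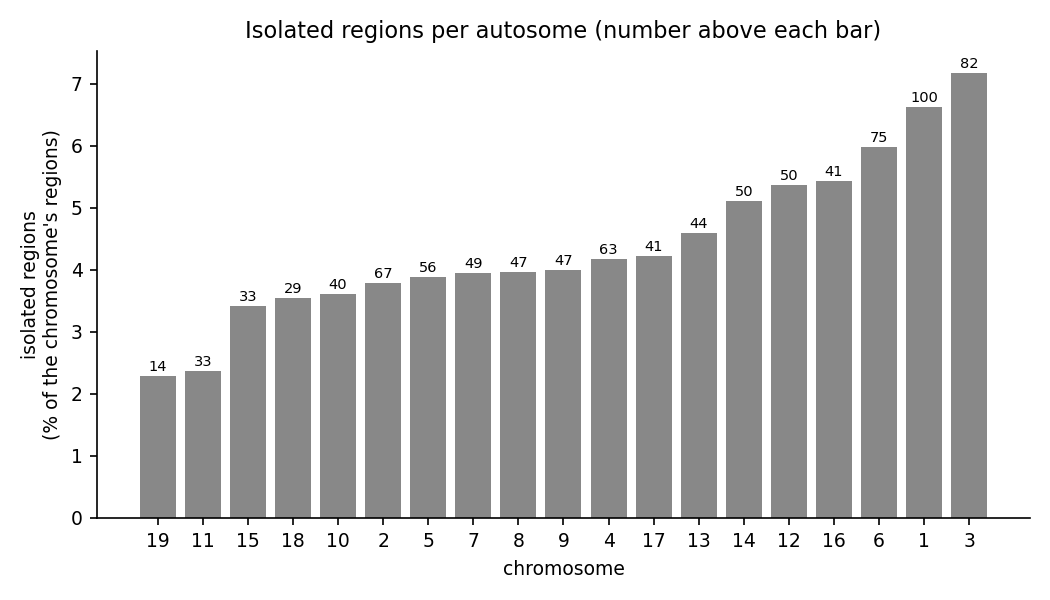
Isolated regions as a percentage of the hippocampal regions of each autosome, in rising order, with their number above each bar. The share runs from 2.30% on chromosome 19 to 7.17% on chromosome 3.

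Many isolated regions followed one another. Of the 961, 593 stood in 211 runs of at least 2 successive isolated regions, and 368 stood alone. Each run or single region was taken with the empty DNA up to the next region on either side. These 579 sparse stretches covered 752 Mb, 31.3% of the autosomal span, with a median length of 1.02 Mb, while the isolated regions themselves covered 2.48 Mb. The longest run held 10 isolated regions in a stretch of 5.42 Mb on chromosome 1 (24773572 to 30193677), with sums of 142 and 10 counts from sham mice and 327 and 268 in the irradiated pools. A stretch of 5.59 Mb on chromosome 17 (18107827 to 23700980) held 8, with 125 and 3 counts against 103 and 106. There the shallow sham pool 1 held more reads than either of the deep irradiated pools. That was not the rule: in the longest run and in most other long runs, both irradiated pools held more reads than sham pool 1.

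The question of the study was whether proton exposure leaves a lasting trace in 5hmC, and in isolated regions no dose effect passed in the edgeR fit of all 4 libraries or in the test of their share of counts. Isolated regions took 5.13% of the autosomal reads of sham pool 1 (13439 of 261986, 95% exact binomial interval 5.05% to 5.21%) and 2.07% of those of sham pool 2 (1.99% to 2.16%). In the irradiated pools they took 1.87% (1.85% to 1.89%) and 1.95% (1.93% to 1.97%). Both sham pools lay above both irradiated pools, 3.60% ± 2.16 against 1.91% ± 0.05 (SD, n = 2 pools each). The difference, irradiated minus sham, was -1.69 percentage points and its exact two-sided permutation p was 0.33, the lowest value that this permutation test allows with 2 pools per dose. Without sham pool 1 it was -0.16 percentage points, so most of it rests on that library. Without sham pool 2 it was -3.22.

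**Figure D4:**
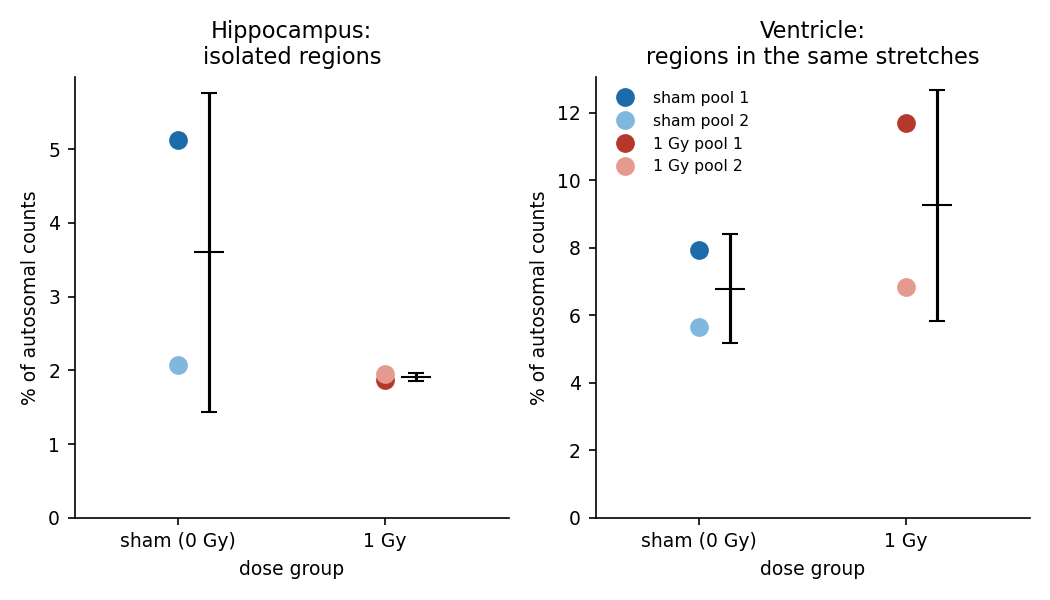
Share of autosomal counts (%) held by the isolated regions in the hippocampal libraries (left) and by ventricular regions in the same stretches in the ventricular libraries (right). Coloured points are pools; black bars are the mean and SD of 2 pools. In hippocampus sham pool 1 (5.13%) stands above the other 3 (1.87% to 2.07%), and in ventricle 1 Gy pool 1 (11.7%) stands above the other 3 (5.65% to 7.93%).

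For single regions, 827 of the 961 passed the low-count filter of the edgeR fit (86.1%, against 98.7% of other autosomal regions). The 134 that did not had a median of 15 counts in sham pool 1, and of 0 in sham pool 2. With edgeR's quasi-likelihood test and Benjamini-Hochberg adjustment (FDR, the false discovery rate, threshold 0.05), 0 isolated regions passed for 1 Gy against 0 Gy, as did 0 (0%) of all 21498 tested regions. An unadjusted p under 0.05 was found for 13 isolated regions (1.57%), where the figure over all tested regions was 1.04%. In a fit with a replicate block it was found for 4 (0.484%), against 0.284% of all, and with scaling by total counts for 24 (2.90%), against 1.07%. DESeq2 called 1, the isolated region on chromosome 8 described below, which was also the only one it called among all regions (0.00455%). DESeq2 gave an unadjusted p under 0.05 for 89 isolated regions (9.26%), against 3.68% of all.

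The tested isolated regions lay lower after 1 Gy than regions at large. Their median log2 fold change was -0.63, against 0.14 in other autosomal regions and 0.11 over all tested regions. In CPM with TMM scaling, both irradiated pools lay below both sham pools in 158 of 827 (19.1%, against 8.46% of all tested regions). They lay above them in 41 (4.96%, against 22.6%). With all isolated regions and no filter the median was -0.76. The fitted median changed sign with the sham pool used. With low counts raised to a floor the median was negative against either sham pool. Against sham pool 2 most isolated regions were raised to that floor, so the sign there shows no direction of change. Without sham pool 2 the median of isolated regions was -1.20, 1.36 below that of other regions (difference -1.36). Without sham pool 1 it was 1.35, which lies 0.67 above, but 435 isolated regions then stand at 0 in the remaining sham pool and their fitted sizes are no bound. With counts under 3 set to 3, the median of irradiated over sham pool 2 was -0.97 on the log2 scale in isolated and -0.18 in other regions. In that comparison 681 of 961 isolated regions were under 3 counts, and 3 counts are 27.1 CPM in sham pool 2, above the irradiated medians of 15.7 and 17.2 CPM. A dose difference in a typical isolated region was therefore not detectable against sham pool 2 at this depth. Against sham pool 1 the same measure was -1.67 in isolated and -0.29 in other regions, with 872 of 961 (90.7%) below 0.

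Calls appeared when 1 sham pool was left out, mostly lower ones when that was sham pool 2. Without sham pool 2 edgeR called 225 isolated regions lower (23.5%, against 5.23% of all tested) and 27 higher (2.82%, against 15.4%). Without sham pool 1 it called 39 lower (4.21%, against 5.32%) and 22 higher (2.38%, against 10.1%). Of the regions in both lists, isolated ones were 4 of 17 lower and 1 of 198 higher. For scale, isolated regions were 4.43% of autosomal regions. Both lists use the same irradiated pools, so a call in both is no independent support. Each of these fits assumes that the lone sham pool varies as the irradiated pools do. Leaving out either irradiated pool gave 0 calls, and 0 isolated regions then had an unadjusted p under 0.05 in edgeR, against 0.0142% and 0.0143% of all tested regions.

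Among isolated regions with the smallest p for a lower value, the first was on chromosome 8 at 5134701 to 5137244. It held 19 and 9 counts in sham mice, and 12 and 10 in the much deeper irradiated pools, which do not overlap after scaling. With TMM scaling the sham pools averaged 68.7 CPM ± 12.1 and the irradiated pools 7.07 CPM ± 0.31 (SD over 2 pools), a log2 fold change of -3.23 (SE 0.80, edgeR unadjusted p = 0.00382, FDR 1.00). Its DESeq2 FDR was 0.0207. The SE above was derived from the edgeR fold change and test statistic, since that test reports none. The second, on chromosome 1 at 132403235 to 132405778, held 23 and 8 against 26 and 19 counts, with a log2 fold change of -2.29 (edgeR FDR 1.00). The third, on chromosome 13 at 87559369 to 87561912, held 20 and 6 against 13 and 7, with -3.16 (edgeR FDR 1.00). In these 3 regions the groups did not overlap in CPM although the raw counts were alike, so the difference rests on library totals. Without sham pool 2 the edgeR log2 fold changes on chromosomes 8, 1 and 13 were -3.04, -2.29 and -3.26. Without sham pool 1 they were -3.46, -2.27 and -3.02. The 3 regions were picked by their p on these pools, so this is no independent support.

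For a higher value the smallest p belonged to the region on chromosome 12 at 68158953, the strongest isolated region given above. With TMM scaling its values were 36.8 CPM ± 20.8 in sham and 368 CPM ± 65.0 in irradiated pools (SD, n = 2), and its edgeR FDR was 1.00. Its log2 fold change was 3.37, and it passed with either sham pool left out (2.80, edgeR FDR 3.30e-05, without sham pool 1, and 4.08, 2.38e-13, without sham pool 2). It was picked by its p on these pools, so this is no independent support. The region on chromosome 2 at 106268479 to 106271022 followed, with 9 and 1 against 92 and 89 counts. Its log2 fold change was 1.46 (edgeR FDR 1.00), and 1.06 without sham pool 2. The 2.72 fitted without sham pool 1 rests on 1 sham count, under the floor of 3 counts, so it is no usable size. On chromosome 9 at 15342774 to 15345317 the counts were 9 and 0 against 86 and 88. Its log2 fold change was 1.61, and 1.01 without sham pool 2. No size is given without sham pool 1, since sham pool 2 stood at 0.

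A smaller share of isolated than of other hippocampal regions met a ventricular region in these lists. An overlap of at least 1 bp was found for 18 of 961 (1.87%), against 1311 of 20748 (6.32%). The 18 ventricular regions met were 0.156% of the autosomal ventricular list, and those met by other hippocampal regions 11.3%. The median distance to the nearest ventricular region was 225 kb for isolated and 41.0 kb for other regions. A ventricular region lay within 10 kb of 51 isolated regions (5.31%, against 21.8%) and within 100 kb of 287 (29.9%, against 73.8%). There is 1 list per tissue, so these shares carry no spread between pools and no test.

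**Figure D5:**
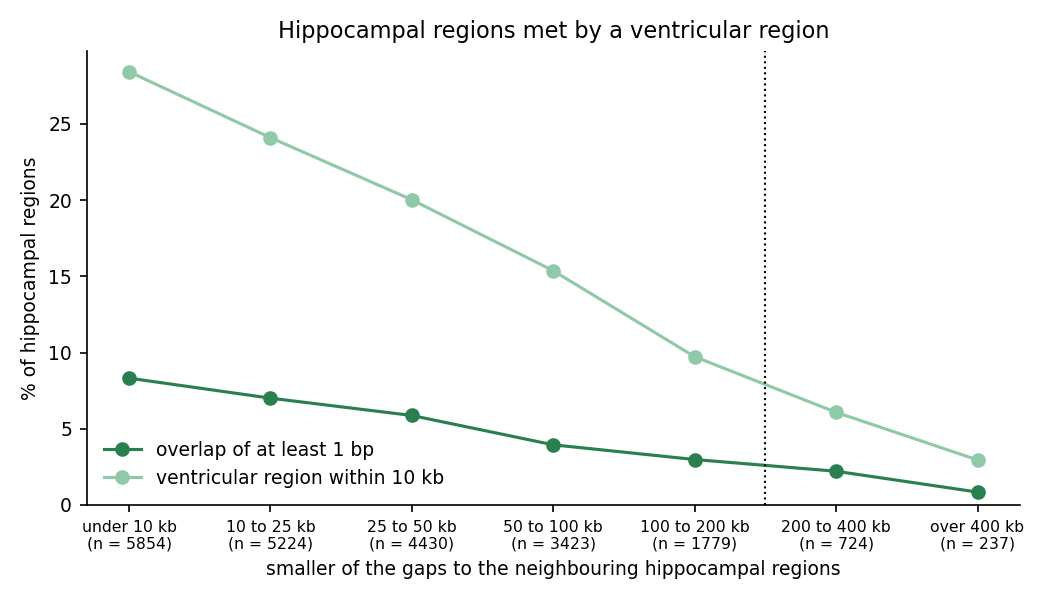
Percentage of autosomal hippocampal regions that overlap a ventricular region by at least 1 bp, or have one within 10 kb, by the smaller of the gaps to the neighbouring hippocampal regions; n is the number of regions per bin and the dotted line marks 200 kb. Overlap runs from 8.32% under 10 kb to 2.98% at 100 to 200 kb and 0.844% above 400 kb, where 2 regions overlapped.

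The 18 shared isolated regions held more counts in the irradiated hippocampal pools than the 943 others, with medians of 60.5 and 47.5 against 30 and 27. In the sham pools the medians were 13.5 and 3.5 against 14 and 1, and sham pool 1 led in 11 of the 18. By summed ventricular counts the first was on chromosome 1 at 87486592, met by a ventricular region at 87486579 to 87490922. That one held 9 and 20 counts in ventricles of sham mice and 10 and 24 in those of irradiated mice. At 68158953 on chromosome 12 the ventricular counts were 23 and 10 against 5 and 21, and at 21861273 on chromosome 10 they were 12 and 23 against 6 and 15. Scaled to library totals, the doses overlapped on chromosome 1 (110 and 403 CPM in sham, 115 and 216 in irradiated pools). On chromosome 12 (281 and 201 against 57.6 and 189 CPM) and chromosome 10 (147 and 463 against 69.1 and 135 CPM) both irradiated pools lay below both sham pools, with no test made. The next, on chromosome 11 at 12134919 to 12137462, held 12 and 0 against 84 and 53 counts in hippocampus and 17 and 0 against 3 and 26 in ventricle. On chromosome 5 (91766287 to 91768830) the counts were 21 and 1 against 35 and 42 in hippocampus, and 1 and 0 against 0 and 39 in ventricle, where 1 pool held nearly all.

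The stretches that are sparse in hippocampus also held few ventricular regions. They held 1269 ventricular regions, or 1.69 per Mb, against 6.20 per Mb over the rest of the autosomes, a ratio of 0.272. Hippocampal density, 1.28 inside against 12.6 per Mb outside, is set by the rule, so the tissues cannot be compared on it.

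Within the stretches 1 ventricular library stood apart, as 1 hippocampal library did. The 1269 regions were 11.0% of the autosomal ventricular regions in the span. Their share of counts was 7.93% and 5.65% for the sham ventricular pools, and 11.7% and 6.83% for the irradiated ones. The mean count inside, divided by that outside, was 0.694, 0.482, 1.07 and 0.591 in that order. The median inside was 9 counts in irradiated pool 1, against 7 outside, and in irradiated pool 2 it was 1 against 5. Irradiated pool 1 held the highest CPM in 642 of the 1269 regions (50.6%, against 35.8% outside). The dose difference of the share was 2.47 percentage points (6.79% ± 1.62 in sham, 9.26% ± 3.43 in irradiated pools, SD, n = 2; exact two-sided permutation p = 0.667). The groups overlapped, and the pool that stood apart was a sham pool in hippocampus and an irradiated pool in ventricle.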

How the data were processed

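Raw read counts deposited by the authors cover 1 merged peak list per tissue, shared by its 4 libraries. Bowtie 1.0.0, CASAVA 1.8.2, DESeq2 and build mm9 appear in the submitters' processing notes, with no role. Peak calling, merging, duplicate handling and input controls were not described in the sources used here. Totals, and depth wherever it is named, are reads inside listed regions, not all reads of a library. Why they differ between pools was not tested. Which pool a region was called in is not given either, and this bears on every comparison between pools.

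Starts were raised by 1 on the assumption of BED coordinates. Gaps ran from the end of a region to the start of the next. Groups (tissue and dose) came from the sample titles. Dose was tested in edgeR 4.0.16 (R 4.3.3) on all hippocampal regions, with TMM scaling, filterByExpr and FDR 0.05, and shares of counts by exact permutation. CPM values are scaled to library totals unless TMM is named. DESeq2 1.42.0 and the settings given at the end were alternatives. Overlap and density have no replicates and no test. Hippocampal pools of a dose differed by more than counting error (chi-square per degree of freedom 6.67 for sham, 4.36 for irradiated). This does not show whether they held different mice, or what made them differ. The labels call the pools biological replicates. The fit was tried on simulated data with large changes and less spread between pools than here. That trial does not show what the fit can detect in isolated regions.

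The isolated regions and the lists were chosen with earlier results of these data known. Regions named are the 5 with the largest smaller gap, the 5 with the highest mean CPM, for each dose direction the 3 with the smallest p where fewer passed, the 5 that overlap a ventricular region with the most ventricular counts, and 2 on either side of the gap threshold. The chromosomes with the highest and lowest isolated share are named too. Chromosomes 1, 2, 7 and 11, the runs on chromosomes 1 and 17 and the ventricular library pattern were chosen after their values had been seen.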

Additional observations from a re-analysis of the deposited data

How the results depend on the processing

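The count of isolated regions called for dose was 0 in edgeR with DESeq2-type size factors, total counts, no low-count filter, an FDR of 0.1, or gaps of 100000 or 400000 bp, and 1 with DESeq2. In the edgeR settings with all libraries, isolated regions with an unadjusted p under 0.05 numbered from 4 (replicate block) to 24 (total counts), with 0.284% and 1.07% of all tested regions beside them. With 1 library left out the count of isolated regions called for dose ranged from 0 to 252 (61 without sham pool 1, 252 without sham pool 2). Without sham pool 1, isolated regions were called less often than all tested regions in either direction. Without sham pool 2 they were called lower more often and higher less often, by the shares given above. Each of these fits rests on a lone sham pool. With the replicate number as a block the count called was 0. Same-numbered pools did not deviate together (correlation -0.0028 across regions), so the numbers were not taken as pairs. The dose difference of the share of counts kept its sign throughout. With 1 library left out it ranged from -3.22 to -0.16 percentage points, and it was -4.07 and -0.49 with gaps of 100000 and 400000 bp, where more or fewer regions are counted. It was -1.90 in regions of the most common width and -1.50 with the 12 strongest autosomal regions left out. Overlap with ventricle was 0.844% at 400000 bp (6.18% of other regions) and 5.31% within 10000 bp. The ventricular density ratio was 0.356 and 0.236 with gaps of 100000 and 400000 bp, and 0.305 for ventricular regions that overlap no hippocampal region; the cause was not tested. The median difference of isolated and other regions moved beyond the spread between pools in 1 of 9 settings, without sham pool 1. The 6 regions named for dose kept their sign in every setting. They were picked by their p on these pools, and their doses did not overlap in CPM. A kept sign was therefore set by the choice and is no independent support. Depth limits values in sham pool 2 most. The settings of the median difference, the comparisons without sham pool 1 and the shares at equal depth were chosen after seeing the data.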
